A study of Mus musculus and Homo sapiens with 107 samples.

Results

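The integrin subunits described here are 10 genes taken by identifier from the raw gene count tables of 2 human lung cancer cell lines. They are the alpha subunits ITGA2, ITGA3, ITGA5, ITGA6 and ITGAV and the beta subunits ITGB1, ITGB4, ITGB5, ITGB6 and ITGB8, out of 24019 genes listed for H1299 and 24353 for A549. No measured value enters the rule that chose them, but the members were chosen with earlier results of these data known. Genes are listed there under Ensembl identifiers without symbols, and the symbols used here came with the list of members. All 10 had counts in every library and passed the filter on low counts in each line.

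The comparison asks which transcripts differ after exposure to BRM014, an allosteric inhibitor of BRG1 and BRM, either of which serves as the motor of a SWI/SNF chromatin remodelling complex. The groups were H1299 cells with BRM014, H1299 cells with DMSO, A549 cells with BRM014 and A549 cells with DMSO, with 3 libraries each. H1299 and A549 are established lines of non-small-cell lung cancer, both labelled wild type. That label does not state whether BRG1 and BRM are both intact in these lines, which was not examined here. BRM014 was given at 5 µM for 12 h and DMSO, its solvent, for the same time, at 0.05% by the titles and 0.5% by the treatment field. H1299 was grown in RPMI and A549 in F12-K medium, and the libraries of the lines had different numbers of PCR cycles, so line, medium and PCR cannot be told apart. Separate cultures are not stated in the labels, and p-values therefore reflect only how these libraries varied, possibly for technical reasons.

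Integrins are cell surface receptors made of an alpha and a beta subunit, which bind the matrix outside the cell and connect it to the actin or intermediate filament skeleton inside. ITGB1 is the common partner of many alpha subunits: with ITGA2 it forms a collagen receptor, with ITGA3 and ITGA6 laminin receptors, and with ITGA5 the classical fibronectin receptor. ITGA6 also pairs with ITGB4, the integrin of hemidesmosomes, and ITGAV pairs with ITGB5, ITGB6 and ITGB8, whose receptors bind RGD motifs. The receptors with ITGB6 and with ITGB8 are known for activating latent TGF-beta. In lung epithelium the ITGAV and ITGB6 receptor is known to be low at rest and raised in injury and in some carcinomas.

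The H1299 libraries held 28412113 to 41780029 counts and the A549 libraries 40684360 to 50177678. In A549, DMSO replicate 1 and 1 of the BRM014 libraries, library a, deviated from their group means in the same direction, with a correlation of 0.69 across 10652 genes. For DMSO replicate 3 and BRM014 replicate 3 it was 0.48. Library a and library b are the 2 A549 BRM014 libraries that share a column header and so carry no replicate number. Without DMSO replicate 1 and library a, each A549 call described below was also made. That pair was picked from these same data for its shared deviation, so this is not a separate check. Without it 6456 genes were called in A549, against 5624 with all libraries. Markers of the labelled cell type were not checked here, because symbols other than those of the members are not paired with identifiers.

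With BRM014, 6 of the 10 subunits changed in H1299, where 22% of all genes tested did, and 9 of 10 changed in A549, where 37% of all genes did. In H1299, 5 fell (12.7% of all genes) and 1 rose (9.29%), and in A549, 6 fell (19.4%) and 3 rose (17.7%). Here and below, "rose", "fell" and "changed" mean an adjusted p below 0.05 in edgeR's quasi-likelihood test, adjusted over all genes. The alpha subunits ITGA2, ITGA3 and ITGA5 fell in both lines, which 6.26% of the genes tested in both did, and 0 subunits rose in both (4.31%). ITGB5 and ITGB1 changed in opposite directions in the lines, as did 2.3% of all genes. ITGB1 is also the 1 that rose in H1299, and its call was lost in 6 of 13 alternatives there and in 4 of 13 in A549. The other subunits, ITGA6, ITGAV, ITGB4, ITGB6 and ITGB8, passed the threshold in 1 line alone, and the share of all genes that did is not given here. This alone is no difference in response: ITGB6 and ITGB8 did not pass the test between the lines described below. The median log2 fold change of the members was -0.48 in H1299 and -0.29 in A549, beside 0.0029 and 0.017 over all genes tested. The median absolute log2 fold change was 0.48 and 0.42, beside 0.096 and 0.16. In H1299 both medians include ITGB6, which passed the filter on low counts there through its DMSO libraries. Without it the middle member by either measure is ITGB5, with a log2 fold change of -0.32. The fall was at least 2-fold for 3 subunits in A549, ITGA3, ITGB4 and ITGB6 (4.6% of all genes), and for 0 in H1299 (1.61%). In A549, 0 rose at least 2-fold (1.88%). These counts depend on the cutoff. ITGA3 had a log2 fold change of -1.02 in A549 and -0.96 in H1299, and ITGB6 had -1.19 in H1299 but was not called. With library totals in place of scaling factors, ITGA3 and ITGB4 in A549 were at -0.97 and -0.98, short of 2-fold. In bulk RNA, fewer cells with a transcript and less of it per cell cannot be told apart, and scaling makes each level a share of its library.

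**Figure D1:**
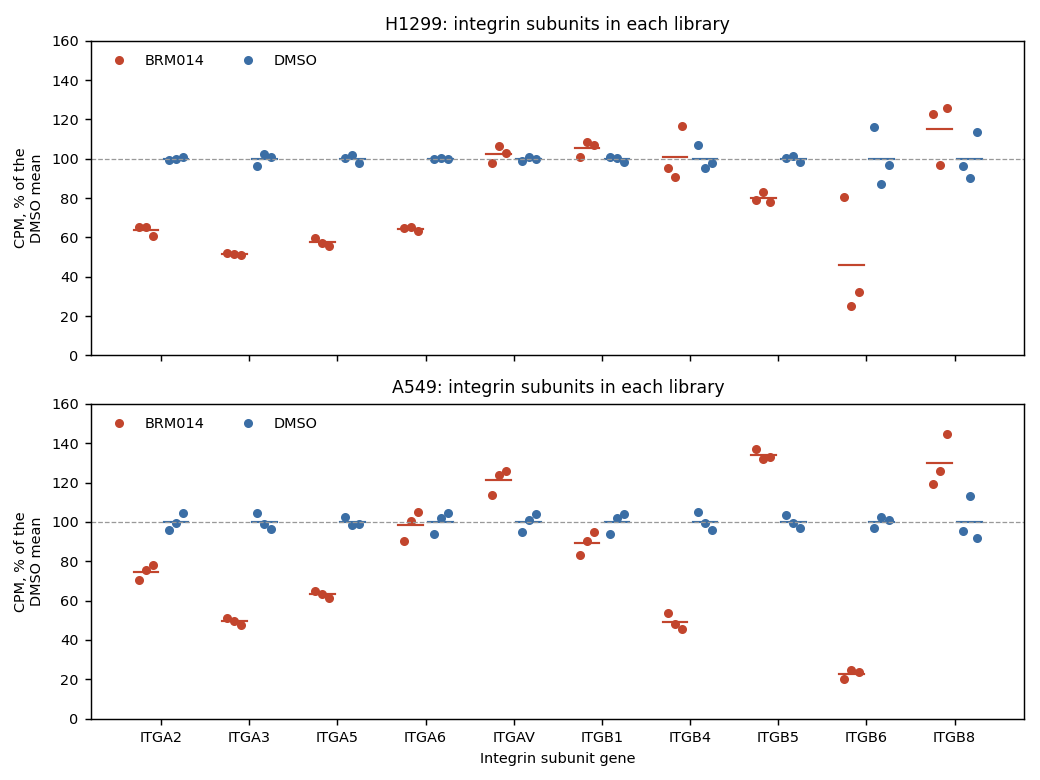
CPM (counts scaled to library size) of each integrin subunit in each library, as a percentage of the DMSO mean of its line, for H1299 (upper panel) and A549 (lower panel). Points are libraries and short lines are means of 3. ITGA2, ITGA3 and ITGA5 lie below their DMSO libraries in both panels, while ITGB5 lies below them in H1299 and above them in A549.

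Libraries of the BRM014 and DMSO groups did not overlap for 6 of the 10 subunits in H1299 (35.2% of all genes) and for 8 of 10 in A549 (48.2%). In H1299 all 6 lay below DMSO (18.6%) and 0 above it (16.6%). One of these, ITGB6, passed the filter on low counts there through its DMSO libraries, and without it 5 lay below. In A549, 5 lay below DMSO (24.8%) and 3 above it (23.4%). Overlapping libraries in both lines were seen for ITGB1 alone, while ITGAV, ITGB4 and ITGB8 overlapped in H1299 and ITGA6 in A549.

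ITGA3 (ENSG00000005884), which pairs with ITGB1 in a laminin receptor, fell to about the same share of its DMSO level in both lines. In H1299 it stood at 287, 281 and 280 CPM in the BRM014 libraries, against 530, 562 and 554 CPM in the DMSO libraries. In A549 it stood at 415, 403 and 388 CPM in the BRM014 libraries a, b and 3, against 852, 806 and 784 CPM in the DMSO libraries. Each BRM014 library was far below each DMSO library of its line. On the log2 scale the fold change was -0.96 in H1299 (standard error 0.03, adjusted p = 8.8e-24) and -1.02 in A549 (standard error 0.04, adjusted p = 2.73e-09). Of all genes tested, 1.8% had a lower log2 fold change in H1299 and 4.55% in A549.

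ITGA5 (ENSG00000161638), the alpha subunit of the fibronectin receptor, fell in both lines as well. Its BRM014 libraries had 54.2, 51.9 and 50.3 CPM in H1299, against 91.0, 92.6 and 88.8 CPM with DMSO. In A549 the BRM014 libraries a, b and 3 had 77.3, 75.5 and 72.9 CPM, against 122, 117 and 118 CPM with DMSO. The groups were apart in each line, and the libraries of a group lay within several percent of each other. Its log2 fold change was -0.80 in H1299 (standard error 0.04, adjusted p = 5.37e-18) and -0.66 in A549 (standard error 0.04, adjusted p = 1.75e-07).

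ITGA2 (ENSG00000164171), which forms a collagen receptor with ITGB1, showed the smallest fall of these alpha subunits in A549. In H1299 it had 72.4, 72.5 and 67.2 CPM with BRM014, against 110.3, 111 and 112 CPM with DMSO. In A549 it had 63.6, 68.2 and 70.5 CPM in the BRM014 libraries a, b and 3, against 87.0, 89.9 and 94.6 CPM with DMSO. No BRM014 library reached the level of a DMSO library. ITGA2 had a log2 fold change of -0.65 in H1299 (standard error 0.04, adjusted p = 3.41e-16) and -0.42 in A549 (standard error 0.05, adjusted p = 4.42e-05).

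ITGA6 (ENSG00000091409), a laminin receptor subunit that pairs with ITGB1 or ITGB4, fell in H1299. There it had 548, 551 and 536 CPM with BRM014, against 846, 847 and 844 CPM with DMSO, and the DMSO libraries varied by 0.196% of their mean (coefficient of variation, n = 3). This gave a log2 fold change of -0.63 (standard error 0.03, adjusted p = 4.95e-20). In A549 the BRM014 libraries a, b and 3 had 155, 171 and 179.6 CPM, against 159.9, 173.8 and 178.7 CPM with DMSO, so the groups overlapped over nearly their whole range. There, the log2 fold change was -0.02, with a 95% interval of -0.15 to 0.11 and an adjusted p of 0.825.

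ITGB4 (ENSG00000132470), the partner of ITGA6 in hemidesmosomes, showed the reverse. In A549 it had 27.9, 24.99 and 23.8 CPM in the BRM014 libraries a, b and 3, against 54.9, 51.8 and 49.9 CPM with DMSO, and it fell with a log2 fold change of -1.03 (standard error 0.07, adjusted p = 2.13e-07). Its level in H1299 was low, with 113 to 145 counts in a BRM014 library and 104 to 161 in a DMSO library. The H1299 libraries had 3.63, 3.46 and 4.43 CPM with BRM014, against 4.07, 3.62 and 3.71 CPM with DMSO, and they overlapped. In H1299 the log2 fold change was 0.0015, and its 95% interval ran from -0.28 to 0.28, so a fall of the size seen in A549 lay outside it. Of these laminin-binding partners, ITGA6 thus fell in H1299 and ITGB4 in A549, and neither changed in both.

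ITGAV (ENSG00000138448), the alpha subunit of several RGD-binding receptors, rose in A549. The BRM014 libraries a, b and 3 had 513, 559.9 and 569 CPM, against 429.5, 457 and 469.8 CPM with DMSO, and each BRM014 library was above each DMSO library. The lowest library of each group was DMSO replicate 1 and library a, the pair that deviated together. The rise was 0.28 on the log2 scale (standard error 0.04, adjusted p = 4.8e-04), and without that pair it was 0.27. In H1299 it had 152, 165 and 159.9 CPM with BRM014, against 153.8, 157 and 155 CPM with DMSO. The H1299 groups overlapped, and the log2 fold change was 0.04 (95% interval -0.03 to 0.10, adjusted p = 0.515).

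ITGB5 (ENSG00000082781), a beta partner of ITGAV in receptors for vitronectin, moved in opposite directions in the lines. In H1299 it fell, with 168, 176 and 165 CPM in the BRM014 libraries, against 213, 215 and 208 CPM in the DMSO libraries. In A549 it rose, with 639.9, 617 and 622 CPM in the BRM014 libraries a, b and 3, against 484, 465 and 452 CPM in the DMSO libraries. The groups did not overlap in either line. The log2 fold change was -0.32 in H1299 (standard error 0.03, adjusted p = 5.12e-10) and 0.42 in A549 (standard error 0.03, adjusted p = 1.33e-06).

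ITGB6 (ENSG00000115221), the epithelial partner of ITGAV, had the most negative log2 fold change of the 10 subunits in A549 and very few counts in H1299. In A549 it fell to 2.19, 2.71 and 2.6 CPM in the BRM014 libraries a, b and 3, against 10.6, 11.2 and 11.04 CPM with DMSO. That is a log2 fold change of -2.13 (standard error 0.09, adjusted p = 9.52e-09), and 0.895% of all genes tested in A549 had a lower one. In H1299 it had 12, 5 and 5 counts with BRM014, against 22, 13 and 13 with DMSO. These are 0.386, 0.119 and 0.155 CPM with BRM014 and 0.556, 0.417 and 0.464 CPM with DMSO, so the highest BRM014 library lay just under the lowest DMSO library. All 3 DMSO libraries but only 1 BRM014 library reached the CPM that the filter on low counts asks for, so ITGB6 was tested in H1299 through its DMSO libraries. Its log2 fold change was -1.19 (standard error 0.45) and missed the threshold, with an adjusted p of 0.0571. The ratio of counts per total, 0.439, had a 95% exact interval of 0.252 to 0.742, which covers counting error only. It missed the threshold in 10 of 12 alternatives. The log2 fold change was -0.84 (adjusted p = 0.251) without BRM014 replicate 2, -1.03 (0.181) without BRM014 replicate 3 and -1.05 (0.217) without DMSO replicate 1, and DESeq2 gave an adjusted p of 0.165. The threshold was passed without BRM014 replicate 1, the library with 12 counts, with -1.82 and an adjusted p of 0.0138, and in limma-voom, with 0.0265.

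ITGB8 (ENSG00000105855), a further partner of ITGAV, was low in both lines, with 142 to 205 counts in an A549 library and 128 to 185 in an H1299 library. In H1299 it had 5.59, 4.41 and 5.73 CPM with BRM014, against 4.4, 4.1 and 5.17 CPM with DMSO. These groups overlapped, and the log2 fold change was 0.20 (95% interval -0.06 to 0.45, adjusted p = 0.306). In A549 it rose, with 3.92, 4.15 and 4.76 CPM in the BRM014 libraries a, b and 3, against 3.13, 3.72 and 3.01 CPM with DMSO. Its log2 fold change there was 0.38 (standard error 0.12) and the adjusted p 0.0236. This call was lost when a single library was left out: the adjusted p was 0.0606 without DMSO replicate 1, 0.0899 without DMSO replicate 3, 0.0538 without library b and 0.0919 without BRM014 replicate 3.

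ITGB1 (ENSG00000150093), the shared partner of the alpha subunits, moved least among the subunits that changed. In H1299 it had 887, 952 and 941 CPM with BRM014, against 888, 882 and 866 CPM with DMSO. In A549 it had 1264, 1374 and 1442 CPM in the BRM014 libraries a, b and 3, against 1431, 1553 and 1579 CPM with DMSO. In each line 1 BRM014 library lay within the range of the DMSO libraries. The log2 fold change was 0.08 in H1299 (standard error 0.03, adjusted p = 0.0465) and -0.16 in A549 (standard error 0.05, adjusted p = 0.0205). Neither call held throughout. In H1299 the adjusted p was 0.101, 0.132 and 0.222 without DMSO replicate 1, 2 and 3, and 0.0711 and 0.185 without BRM014 replicate 2 and 3. With the replicate number as a block it was 0.0767. In A549 it was 0.0781 and 0.0833 without DMSO replicate 2 and 3, 0.0579 without library b, and 0.075 with library totals in place of scaling factors. Without both DMSO replicate 1 and library a, the pair that deviated together, the log2 fold change in A549 was -0.17 and the adjusted p 2.88e-06. The pair was picked from these data for that deviation, so this value does not offset the lost calls.

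**Figure D2:**
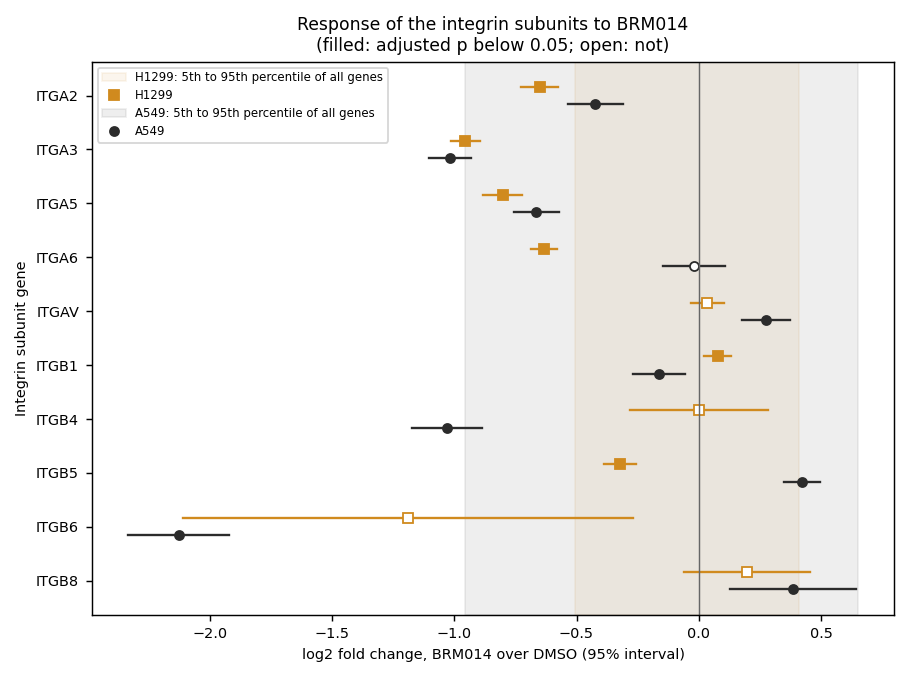
Log2 fold change of BRM014 over DMSO for each subunit with its 95% interval, in H1299 (squares) and A549 (circles), filled where the adjusted p was below 0.05. Shaded bands span the 5th to the 95th percentile of all genes tested, from -0.51 to 0.41 in H1299 and from -0.96 to 0.65 in A549. In H1299, the estimates of ITGA2, ITGA3, ITGA5, ITGA6 and ITGB6 lie to the left of the band, and in A549 those of ITGA3, ITGB4 and ITGB6 do. ITGB6 in H1299 was not called, had 5 to 12 counts in a BRM014 library, and its interval of -2.11 to -0.27 reaches into the band. The intervals of ITGA3 and ITGB4 in A549 also reach into theirs.

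Counts of the 10 genes together made up 0.222% to 0.227% of a library with BRM014 and 0.28% to 0.285% with DMSO in H1299. In A549 they made up 0.323% to 0.341% with BRM014 and 0.356% to 0.369% with DMSO. The groups were apart in both lines. These sums are dominated by the genes with the most counts, and they do not count receptors.

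The balance between partners was read from the ratio of their counts within a library, which does not depend on scaling. Gene length cancels when the ratio is compared between groups. Among 9 known pairs, the ratio of alpha to beta counts did not overlap between BRM014 and DMSO for 7 pairs in H1299 and for 7 in A549. The ratio of every other gene tested to ITGB1 did not overlap for 37.5% of the genes in H1299 and 52.9% in A549. To ITGAV these shares were 31% and 64%, and to ITGB4 13% and 93.8%. An exact two-sided permutation test of 3 against 3 libraries cannot go below p = 0.10, so no pair could pass 0.05. Over the 18 comparisons the smallest adjusted value was 0.129. The pairs also share genes, so they are not separate observations.

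In both lines ITGA2, ITGA3 and ITGA5 lay lower relative to ITGB1 with BRM014. For ITGA3 over ITGB1, the log2 ratio changed by -1.03 in H1299 (-1.71 ± 0.07 with BRM014 and -0.68 ± 0.06 with DMSO, SD, n = 3 each; exact permutation p = 0.1). In A549 it changed by -0.85 (-1.76 ± 0.15 with BRM014 and -0.90 ± 0.14 with DMSO; exact permutation p = 0.1). For ITGA5 over ITGB1 the changes were -0.88 in H1299 and -0.50 in A549, and for ITGA2 over ITGB1 they were -0.73 and -0.26. In all 3 pairs each BRM014 library had a lower ratio than each DMSO library of its line.

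The ITGA6 ratios turned between the lines. ITGA6 over ITGB1 changed by -0.71 in H1299 and by 0.14 in A549, where the ratios with BRM014, -3.01 ± 0.02, and with DMSO, -3.16 ± 0.01, were apart (SD, n = 3 each) although ITGA6 itself did not pass its test there. ITGA6 over ITGB4 changed by -0.64 in H1299 and by 1.01 in A549. The A549 value stands beside the 93.8% of genes whose ratio to ITGB4 did not overlap there.

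Among the partners of ITGAV, the ratio of ITGAV to ITGB6 lay higher in each A549 BRM014 library than in every A549 DMSO library, and the log2 ratio changed by 2.41. In H1299, where ITGB6 was tested through its DMSO libraries, the change of 1.28 is given as a description, although that pair is among the 7 without overlap. Its SD with BRM014 was 0.90, against 0.21 with DMSO, and ITGB6 had 5 to 12 counts in those BRM014 libraries. ITGAV over ITGB5 changed by 0.36 in H1299, with no overlap, and by -0.15 in A549, where libraries overlapped (exact permutation p = 0.3). ITGAV over ITGB8 overlapped in both lines. ITGAV over ITGB1 changed by 0.44 in A549, with no overlap, and by -0.04 in H1299, where libraries overlapped (exact permutation p = 0.2).

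**Figure D3:**
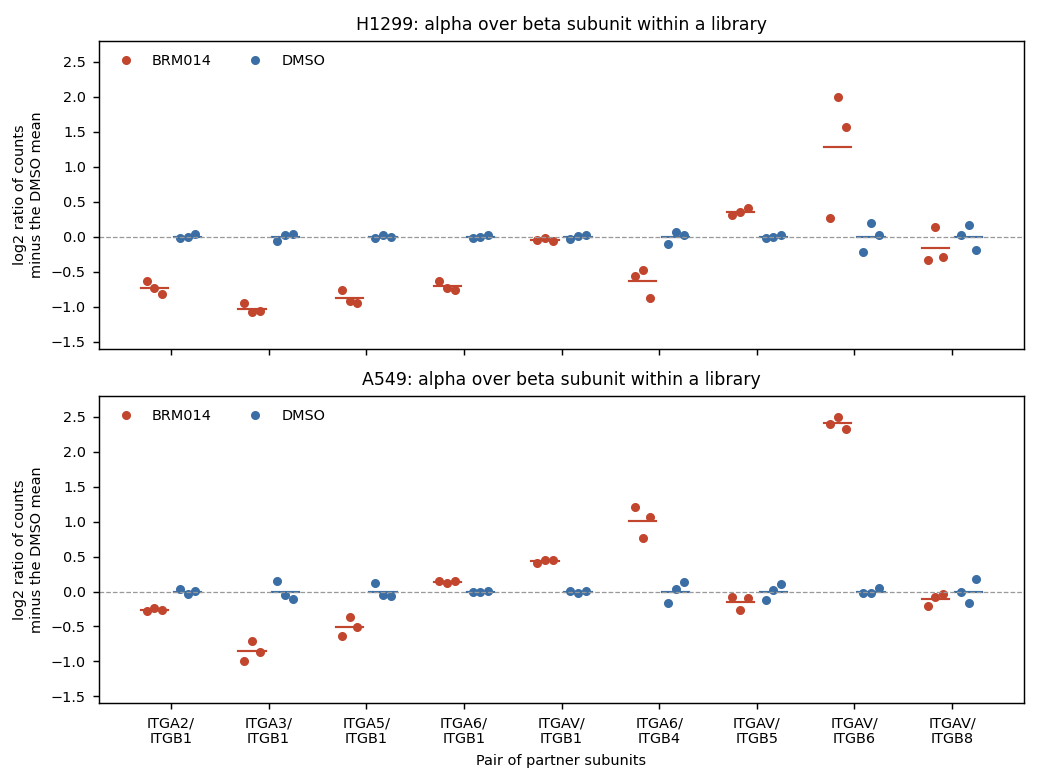
Log2 ratio of alpha to beta subunit counts in each library, minus the mean of the DMSO libraries of the line, for 9 known pairs in H1299 (upper panel) and A549 (lower panel). Points are libraries and short lines are means of 3. The ratios of ITGA2, ITGA3 and ITGA5 to ITGB1 lie below 0 with BRM014 in both lines, and the ratio of ITGA6 to ITGB4 lies below 0 in H1299 and above 0 in A549.

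Whether a subunit responded differently in the lines was tested with the line by treatment interaction in a joined fit of the 12 libraries. The response differed for 6 of the 10 subunits, beside 19.5% of all genes tested. It was more positive in H1299 for ITGB4 and ITGB1 (10.2% of all genes) and more negative for ITGB5, ITGA6, ITGAV and ITGA2 (9.25%). Only ITGB4 was called with a difference of at least 2-fold, toward H1299, as were 1.62% of all genes. The largest called differences, H1299 minus A549 on the log2 scale, were 1.05 for ITGB4 (standard error 0.13, adjusted p = 2.69e-06) and -0.72 for ITGB5 (standard error 0.05, adjusted p = 1.32e-10). ITGA6 followed with -0.59 (standard error 0.07, adjusted p = 2.54e-07).

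The other differences were smaller. ITGB1 differed by 0.26 (adjusted p = 0.00349), ITGAV by -0.22 (adjusted p = 0.0157) and ITGA2 by -0.20 (adjusted p = 0.0352). The ITGB1 difference passed in each of the 20 alternatives, unlike the ITGB1 change within either line. For ITGA2 the call was lost in 9 of the 20 alternatives, with adjusted p up to 0.117. It was lost without A549 DMSO replicate 1 (0.0796) or 2 (0.0712), without A549 BRM014 library b (0.0913) or replicate 3 (0.0613), and without H1299 DMSO replicate 1 (0.0694), 2 (0.0656) or 3 (0.0707). It was also lost without H1299 BRM014 replicate 3 (0.117) and with a replicate block in H1299 (0.0549). For ITGAV it was lost without A549 library b (0.055) or H1299 BRM014 replicate 1 (0.0556).

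ITGA3, ITGA5, ITGB6 and ITGB8 did not pass the interaction test. The interval of the difference was -0.02 to 0.19 for ITGA3 and -0.24 to 0.0095 for ITGA5. It was -0.54 to 0.20 for ITGB8 and 0.06 to 1.83 for ITGB6, whose unadjusted p of 0.0368 became 0.132 after adjustment. The interval was narrow for ITGA3, which had at least 8925 counts in a library, and wide for ITGB6.

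With DMSO, 8 of the 10 subunits differed between H1299 and A549, a share close to the 85.7% of all genes tested. ITGA6 was higher in H1299 (42.9% of all genes), and ITGA3, ITGA5, ITGAV, ITGB1, ITGB4, ITGB5 and ITGB6 were lower there (42.8%). Of these, 5 were at least 2-fold lower, as were 21.3% of all genes. Libraries of the lines did not overlap for the same 8 subunits (86.6% of all genes), 1 higher (43.5%) and 7 lower (43.1%) in H1299. The levels that follow are CPM scaled over all 12 libraries, which are not the same as those scaled within a line, as mean ± SD of 3 libraries. ITGA6 had 787 ± 4.71 CPM in H1299 and 186 ± 11.7 CPM in A549, and the fitted log2 difference was 2.08 (standard error 0.05 and adjusted p = 1.29e-22).

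The beta subunits ITGB4 and ITGB6 showed the widest gaps. ITGB4 had 3.54 ± 0.239 CPM in H1299 and 56.9 ± 2.39 CPM in A549, with -4.00 for the log2 difference (standard error 0.09 and adjusted p = 3.34e-23). ITGB6 had 0.446 ± 0.0683 CPM in H1299 and 11.9 ± 0.412 CPM in A549, with -4.71 for the log2 difference (standard error 0.16 and adjusted p = 9e-19). ITGAV had 144.7 ± 1.01 CPM in H1299 and 493 ± 25.5 CPM in A549, and its partner ITGB5 had 197 ± 3.76 and 509 ± 14.7 CPM. ITGB1 was at 818 ± 14.2 CPM in H1299 and 1658 ± 96.6 CPM in A549, which is 49.4% of the A549 level in the fit. ITGA3 and ITGA5 stood at 57.6% and 65.1% of their A549 levels.

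ITGA2 and ITGB8 did not pass the test between the lines in DMSO. ITGA2 had 103 ± 0.417 CPM in H1299 and 98.6 ± 4.73 CPM in A549, with a 95% interval of the log2 difference of -0.03 to 0.17. ITGB8 had 4.24 ± 0.507 CPM in H1299 and 3.59 ± 0.423 CPM in A549, with an interval of -0.03 to 0.51. Both were called higher in H1299 with a filter at 5 CPM and with library totals. Under library totals all genes had a median of 0.24, against 0.016 with scaling factors. ITGB8 was also called without A549 DMSO replicate 2, with a log2 difference of 0.34 and an adjusted p of 0.0347.

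**Figure D4:**
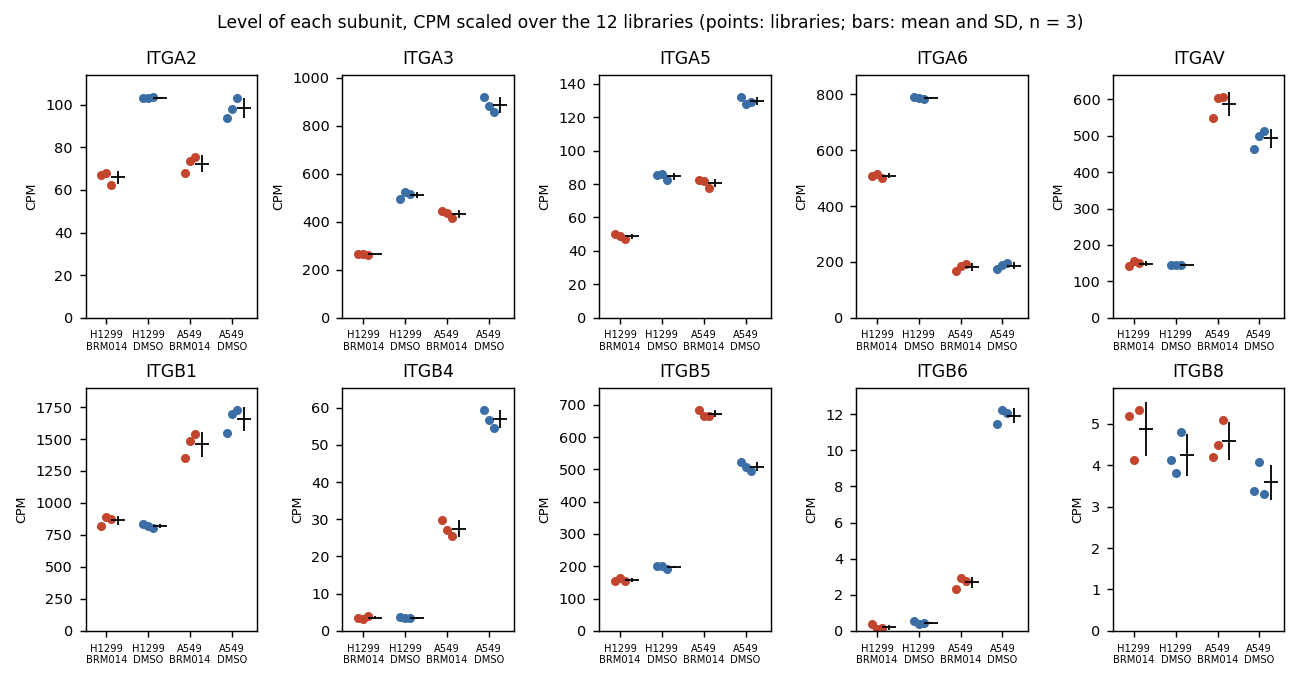
CPM of each integrin subunit in each library, scaled over the 12 libraries, for the groups H1299 BRM014, H1299 DMSO, A549 BRM014 and A549 DMSO. Red points are BRM014 libraries, blue points are DMSO libraries, and black bars are mean and SD (n = 3). ITGA6 is higher in H1299, ITGB4 and ITGB6 are near the bottom of their axes in H1299, and the levels of ITGB8 overlap between neighbouring groups.

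With BRM014 the gap between the lines, read from the same joined fit, was narrower for 6 subunits and wider for 3. The same counts over all genes are not given here. Among the 6 is ITGB6, with 5 to 12 counts in the H1299 BRM014 libraries. For ITGA2 its sign turned, with values of -0.13 with BRM014 and 0.07 with DMSO. The log2 difference between H1299 and A549 was 1.49 with BRM014 and 2.08 with DMSO for ITGA6, and -2.95 with BRM014 and -4.00 with DMSO for ITGB4. It widened for ITGB5, to -2.09 with BRM014 against -1.37 with DMSO, for ITGAV, to -1.98 against -1.77, and for ITGA5, to -0.73 against -0.62. The test of each of these changes is the interaction above, and it was passed by ITGA6, ITGB4, ITGB5, ITGAV, ITGB1 and ITGA2 alone.

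The order of the 4 groups differed between subunits. ITGA3 was highest in A549 with DMSO (887 ± 32.3 CPM), then H1299 with DMSO (511 ± 13.4), A549 with BRM014 (431 ± 15.4) and H1299 with BRM014 (264 ± 2.42), with no overlap between neighbours. ITGA5 had the same order, but its libraries of H1299 with DMSO and A549 with BRM014 overlapped. For ITGA2 the DMSO groups of the lines overlapped, and so did the BRM014 groups, while each DMSO group lay above each BRM014 group. ITGAV, ITGB1, ITGB4, ITGB5 and ITGB6 were higher in both A549 groups than in both H1299 groups. ITGA6 was the reverse. On this joined scale the A549 groups of ITGB1 no longer overlapped, at 1541 CPM for the highest BRM014 and 1547 CPM for the lowest DMSO library. Among these subunits, the H1299 groups overlapped for ITGAV, ITGB1 and ITGB4, and the A549 groups for ITGA6. All neighbours in the order of ITGB8 overlapped.

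Likeness between subunits was measured as the Euclidean distance between their mean log2 CPM in the 4 groups, each centred on the mean of its gene, and compared among the 45 pairs of members. The closest pair was ITGA3 and ITGA5, with a distance of 0.28, and the next was ITGAV and ITGB5, with 0.31. For ITGA2 the nearest was ITGA5 (0.67), and for ITGB1 also ITGA5 (0.74). ITGB4 and ITGB6 were nearest to each other, at 1.48. ITGA6 was far from every other member, with ITGB8 nearest at 1.75, and the farthest pair was ITGA6 and ITGB6, at 6.31. These distances describe 4 group means from shared libraries, and differences between the lines weigh most in them.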

How the data were processed

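The series holds 107 samples, of which 12 RNA-seq libraries were used, and the other 95 were not analysed here. The deposited values are read counts by gene, whole and not normalized, with 1 table per line. The tools named per the submitters' processing notes are STAR 2.7.3a, Bowtie 1.2.2, cutadapt 1.14, DESeq2 and featureCounts, with build hg38. No source used here states their roles, the annotation or the strand setting, so reads of overlapping or antisense genes may be included. Per the labels' protocols, libraries were stranded, ribosome-depleted total RNA. Spike-in counts were not used here.

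The fits used edgeR 4.0.16 under R 4.3.3. Low genes were removed by filterByExpr (minimum count 10, minimum total 15), and libraries were scaled with TMM factors and tested with the two-sided quasi-likelihood test. P-values were adjusted with Benjamini-Hochberg over all genes, and the threshold was 0.05. Each line was fitted alone. All 12 libraries entered 1 fit for the interaction and for the DMSO contrast of the lines. A standard error is the absolute log2 estimate over the root of its F statistic. Ratios of partners used a pseudocount of 0.5 counts. Replicates within a group differed by more than sampling noise (chi-square per degree of freedom 2.2 to 11.1). The steps were tested on simulated data with independent libraries and the same extra variation beyond sampling noise for every gene. The A549 libraries with a shared deviation differ from that setting, so the simulation does not show how often false calls arise here.

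All 10 members are named in every comparison. The members and lists were chosen with earlier results of these data known. The lists of ligands, adaptors, other integrin subunits and cell type markers were not tested, because 0 identifiers matched the name table at hand, and gene positions, lengths and sequences are not given. Alternatives were other scalings, DESeq2 1.42.0, limma-voom (limma 3.58.1), other filters, leaving out libraries and a replicate block.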

Additional observations from a re-analysis of the deposited data

Results flagged for a closer look

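For 6 subunits the interaction test in edgeR found a different log2 fold change of BRM014 over DMSO in H1299 than in A549. The log2 difference, H1299 minus A549, was 1.05 for ITGB4, 0.26 for ITGB1, -0.20 for ITGA2, -0.22 for ITGAV, -0.59 for ITGA6 and -0.72 for ITGB5. Over the 20 alternatives the difference ranged from 0.94 to 1.13 for ITGB4, from -0.76 to -0.70 for ITGB5 and from -0.65 to -0.54 for ITGA6, and these 3 passed the threshold in each. ITGB4 had 104 to 161 counts in an H1299 library, so its response there is known less closely than in A549, where a library had 1024 to 2487. No test for single outlying libraries was applied to the groups of 3, but the fits were repeated with each library left out.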

How the results depend on the processing

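The number of subunits called stayed within 1.5 times its value in each of the 13 alternatives for H1299 and for A549, the 20 for the interaction and the 21 for the lines in DMSO. It ranged from 5 to 7 in H1299, 7 to 9 in A549, 4 to 6 for the interaction and 8 to 10 in DMSO. The 7 in H1299 was reached only where ITGB6 was called, which was tested there through its DMSO libraries. By direction, the 1 rise in H1299 (ITGB1) became 0 under the replicate block and 0 to 1 when a library was left out. The subunits higher in H1299 with DMSO numbered 3 with library totals, 3 with the 5 CPM filter and 1 to 2 when a library was left out. The more negative responses in H1299 numbered 2 to 4 when a library was left out. The causes were not tested. Log2 fold changes that changed sign had not passed the threshold: ITGA6 in A549 was 0.030 with library totals, 0.013 without DMSO replicate 3 and 0.024 without library a, within a range of -0.068 to 0.030 over all alternatives. ITGB4 in H1299 was -0.015 with limma-voom, -0.033 and -0.015 without DMSO replicate 2 and 3, and -0.11 without BRM014 replicate 3, within a range of -0.11 to 0.079 over all alternatives. Partner ratios did not overlap for 7 to 9 pairs in H1299 and 7 to 8 in A549 when a library was left out, where fewer libraries make overlap rarer.

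Same-numbered H1299 libraries deviated with correlations of -0.086, -0.026 and 0.029, so no large shared deviation was seen. The labels do not say what the number marks. With the replicate block, 5 subunits changed in H1299, 5 differed in the interaction and 8 in DMSO. The 5 CPM filter left out ITGB8 in A549 and ITGB4 and ITGB6 in H1299. No block was fitted for A549 alone, where 2 BRM014 libraries carry no number. Counts of 5 to 22 limit what is known of ITGB6 in H1299.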
